A study of Mus musculus with 12 samples.

Results

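The progenitor cells sorted from the adult mouse aorta and its perivascular fat (Progenitor, 3 libraries) were set against the other 3 sorted populations of the same tissue, namely the intermediate cells (Intermediate) and the smooth muscle cell populations SMC1 and SMC2 (3 libraries each, 9 in all). The genes described are those whose 3 Progenitor libraries all lay above, or all lay below, all 9 other libraries in CPM, the count scaled to library size, and which passed a test in the same direction. Of 33352 genes in the table, 19016 had enough counts to be tested, and 1239 of these were called higher in Progenitor with every Progenitor library above every other library. A further 1350 were called lower with every Progenitor library below. All 4 populations came from wild-type male mice of the outbred CD-1 strain, aged 13 weeks, whose aortas were taken with the surrounding fat and digested with collagenase D and dispase. Polyadenylated RNA of the sorted cells was amplified with an ultra-low-input SMART-Seq kit and sequenced. Antibodies and gates of the sort are not given in the sources used here, and genes that defined a gate may therefore be among those described. The labels do not say whether a library number marks an animal or a pool of animals, and p-values reflect library-to-library spread alone, part of which may be technical.

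Vessels such as the aorta are wrapped in perivascular fat, whose stroma holds fibroblast-like cells from which new fat cells can form. In mouse fat depots such stromal cells carry the receptor PDGFRα and the surface protein CD34. Those that also carry DPP4 and PI16 are described as multipotent interstitial progenitors that give rise to committed preadipocytes, which carry more of the adipogenic regulator PPARγ. Smooth muscle cells of the vessel wall are recognised by contractile proteins such as smooth muscle actin and myosin, and they set vascular tone.

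Depth ran from 13258631 to 22647175 counts per library, with 15014976 to 22647175 in Progenitor. Log2 CPM correlated across genes with r of 0.976 to 0.978 among the Progenitor libraries, and with r of 0.942 to 0.955 between Progenitor and Intermediate libraries. SMC1 replicate 1 stood apart in macrophage and myeloid transcripts, whose list summed to 859 CPM there against 138 to 343 CPM in the other 11 libraries. Transcripts of the mitochondrial chromosome took between 0.855 and 1.45% of counts in the 3 Progenitor libraries, against 0.5402 to 0.545% in Intermediate, 0.972 to 1.398% in SMC1 and 1.49 to 1.86% in SMC2. In these bulk samples, fewer cells of a type and less RNA per cell cannot be told apart.

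The label was checked with the markers of each cell type. The 4 markers given for this population, Sult1e1, Pla1a, Fgf10 and Cxcl14, head the genes that the ordering selects, so their levels are a description and no check of the label. Pdgfra, which encodes PDGFRα, had 814, 582 and 1131 CPM in the Progenitor libraries, against 769.8, 795 and 891 in Intermediate, 27.6, 23.8 and 26.4 in SMC1 and 5.80, 7.51 and 8.28 in SMC2. Progenitor and Intermediate overlapped for this gene, and both stood above the SMC libraries. Pi16 also overlapped with Intermediate, with 1231, 2242 and 1843 CPM in the Progenitor libraries, against 2365, 2309 and 1754 in Intermediate and at most 72.4 in the SMC libraries. Cd34 had 1984, 1919 and 1905 CPM in the Progenitor libraries, against 1487, 1143 and 1071 in Intermediate, with no overlap, though its test against Intermediate alone was not called (0.65, adjusted p = 0.112). Acta2, the smooth muscle actin gene, had 96.8, 282 and 229.6 CPM in the Progenitor libraries, against 243, 299 and 214 in Intermediate and 11929 to 21050.2 in the SMC libraries. So fibroblast progenitor markers were present and smooth muscle markers low, and this was true of Intermediate as well.

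A log2 change is the Progenitor level minus the average of the 3 other population levels on the log2 scale, given with its standard error and an adjusted p from the quasi-likelihood test of edgeR, adjusted by the Benjamini-Hochberg method over all 19016 genes. At an adjusted p below 0.05, 7975 genes (41.9%) were called, 3836 higher (20.2%) and 4139 lower (21.8%) in Progenitor. With TMM scaling 48.1% of the calls were higher. That share was 52.2% when size factors came from median ratios, and 59.4% with upper-quartile factors, which moved the median log2 change of all genes to 0.11 from -0.02. All 3 Progenitor libraries lay above the other 9 in 6.66% of tested genes and below them in 7.26%, called or not. The calls with no overlap between Progenitor and the 9 other libraries made up 6.52% of tested genes in the higher direction and 7.10% in the lower direction. With upper-quartile factors the lower group held 879 genes in place of 1350. It held 1147 with factors from median ratios, 1152 with DESeq2 and 1339 with limma-voom. With no filter it held 1004 genes, and with a filter of 1 CPM in 3 libraries 949. Without SMC1 replicate 1, the library that stood apart, 1591 genes were called higher with all Progenitor libraries above and 1036 lower with all below. That shift was not particular to this library. Leaving out any other single SMC library gave 1453 to 1673 genes all above and 1014 to 1141 all below. The remaining calls, 2597 higher and 2789 lower, overlapped with at least 1 other library.

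**Figure D1:**
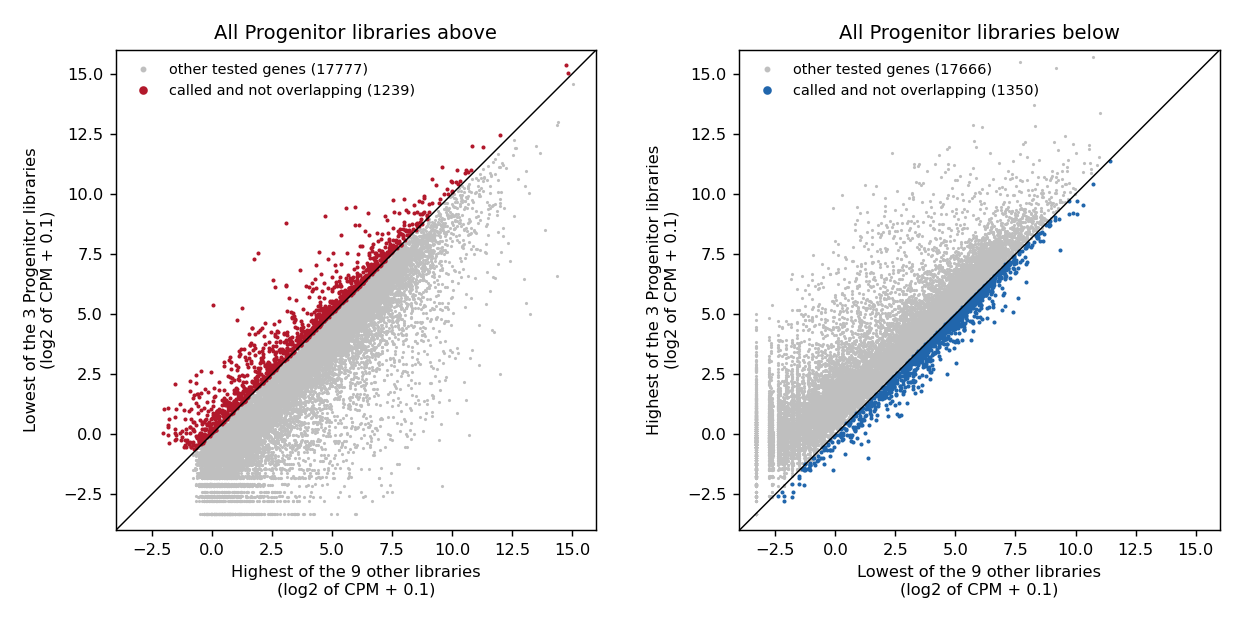
Ordering of the 12 libraries for 19016 tested genes, in log2 of CPM + 0.1. In the left panel the lowest Progenitor library is plotted against the highest of the 9 others, and the 1239 genes above the line that were called higher are in red. In the right panel the highest Progenitor library is plotted against the lowest of the 9 others, and the 1350 genes below the line that were called lower are in blue.

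The genes all above had a median log2 change of 1.64 against the mean of the others and 0.94 against the nearest population, the one with the smallest difference from Progenitor. For the genes all below, these medians were -0.99 and -0.61. At least 4-fold against the nearest population, 190 genes were higher and 41 lower. These sizes describe genes that the ordering and the call selected. Among the 1104 genes all above that pass the filter without the Progenitor libraries, the medians were 1.47 and 0.86, and 123 were at least 4-fold higher. Intermediate was the nearest population for 744 of the genes all above (60.0%) and 943 of the genes all below (69.9%). Among all tested genes, Intermediate had the highest level of the 3 other populations in 35.1% and the lowest in 37.0%. SMC2 was nearest for 272 genes above and SMC1 for 223. Each population was also tested on its own against Progenitor. By those tests 862 genes (4.53%) were higher in Progenitor than in each of the 3 populations, and 813 of them were among the 1239. Another 833 (4.38%) were lower than in each, 782 of them among the 1350.

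At the edge of the ordering, the difference between a gene inside and a gene outside was small. Arl13b was inside, with 29.62 CPM in its lowest Progenitor library and 29.61 in the highest other library. Exosc8 was outside, with 23.94 and 23.99 CPM. Among the genes all above, 284 had a lowest Progenitor library less than 1.1 times the highest other library, and 385 genes called higher missed the rule by a ratio of 0.9 to 1. Of the 1239 genes all above, 135 passed the filter on low counts only through the Progenitor libraries, so those had to differ to be tested at all.

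**Figure D2:**
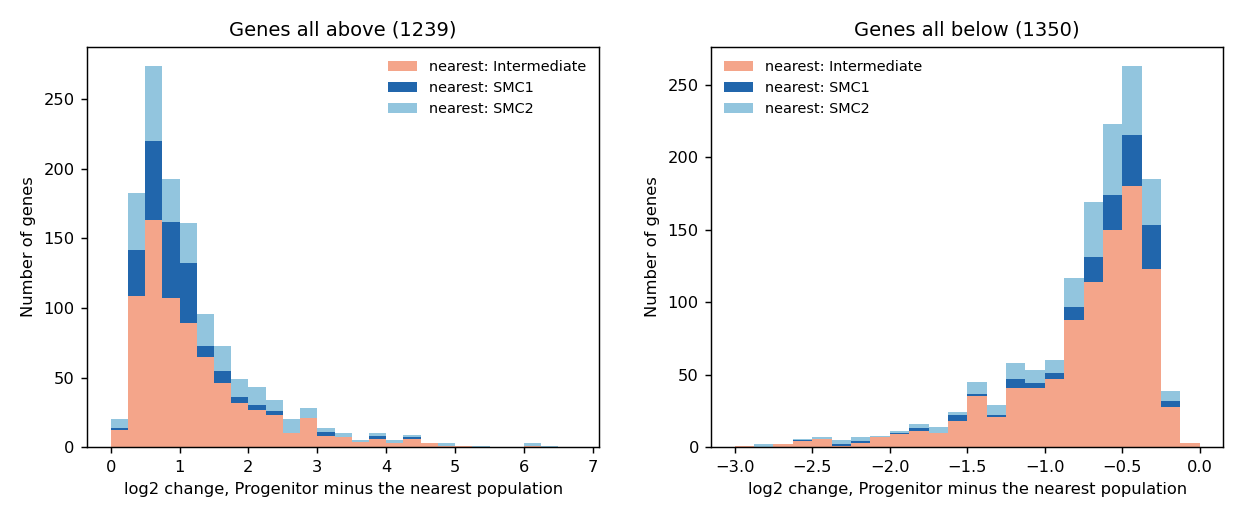
Number of genes by log2 change of Progenitor against its nearest population, for the 1239 genes all above (left) and the 1350 genes all below (right), coloured by which population was nearest. Intermediate was nearest for most genes in both panels, and the tail of large differences is longer on the left.

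Sult1e1, Pla1a, Fgf10 and Cxcl14 were the genes that stood furthest above the nearest population. Sult1e1 (chromosome 5, 87575969 to 87591594, GRCm38), which encodes the oestrogen sulfotransferase that inactivates oestrogens, had 688, 448 and 455 CPM in the Progenitor libraries, against 0.870, 1.256 and 1.15 in Intermediate, 2.55, 0.839 and 0.937 in SMC1 and 3.36, 6.32 and 8.40 in SMC2. Its lowest Progenitor library was 53.3 times its highest other library, and that other library was of SMC2. The log2 change was 7.97 ± 0.26 against the mean of the others (adjusted p = 5.11e-13) and 6.47 against SMC2.

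Fgf10 (chromosome 13, 118669791 to 118792115), a paracrine growth factor that signals through FGFR2 and takes part in the growth of mouse fat, had 74.8, 42.1 and 58.2 CPM in the Progenitor libraries. The 9 other libraries all stayed below 1 CPM, at 0.932, 0.377 and 0.511 in Intermediate, 0.356, 0.513 and 0.410 in SMC1 and 0.736, 0.840 and 0.840 in SMC2. Its log2 change was 6.60 ± 0.19 (adjusted p = 1.24e-15), with SMC2 the nearest population (6.17). Pla1a (chromosome 16, 38396117 to 38433145), a secreted phospholipase that acts on phosphatidylserine, had 262, 187 and 191 CPM in the Progenitor libraries, against 2.17, 2.70 and 1.53 in Intermediate, 3.36, 1.21 and 0.879 in SMC1 and 2.90, 3.21 and 3.66 in SMC2. SMC2 was again the nearest population. The log2 change was 6.51 ± 0.22 (adjusted p = 2.92e-13). Cxcl14 (chromosome 13, 56288643 to 56296551), a chemokine made by many epithelia and by adipose tissue, had 158, 178 and 179 CPM in the Progenitor libraries, against 2.36, 2.26 and 3.32 in Intermediate, 1.27, 0.420 and 0.586 in SMC1 and 0.874, 1.04 and 1.80 in SMC2. Its Progenitor libraries were the tightest of the 4 markers, and Intermediate was the nearest population. The log2 change was 6.99 ± 0.18 (adjusted p = 1.01e-15).

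The 250 bases before the RefSeq start of Sult1e1, Fgf10, Cxcl14 and Ifi205 are shown because these genes are among those furthest above the nearest population. For Fgf10 that start lies inside the longer GENCODE gene model given above. The sequences come from RefSeq on GRCm38.p6, are written 5′ to 3′ on the gene's strand, and carry capitals only where a searched motif matched.
Sult1e1, chr5:87591612-87591861, minus strand: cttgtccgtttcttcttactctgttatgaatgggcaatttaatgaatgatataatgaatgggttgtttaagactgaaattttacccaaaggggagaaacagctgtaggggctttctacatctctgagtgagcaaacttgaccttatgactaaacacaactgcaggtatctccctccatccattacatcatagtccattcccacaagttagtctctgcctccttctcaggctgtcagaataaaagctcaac
Fgf10, chr13:118714449-118714698, plus strand: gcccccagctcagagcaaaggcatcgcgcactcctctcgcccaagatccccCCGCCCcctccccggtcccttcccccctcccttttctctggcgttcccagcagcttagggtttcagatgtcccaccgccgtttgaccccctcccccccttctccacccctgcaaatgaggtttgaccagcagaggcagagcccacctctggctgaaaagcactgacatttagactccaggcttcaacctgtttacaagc
Cxcl14, chr13:56296552-56296801, minus strand: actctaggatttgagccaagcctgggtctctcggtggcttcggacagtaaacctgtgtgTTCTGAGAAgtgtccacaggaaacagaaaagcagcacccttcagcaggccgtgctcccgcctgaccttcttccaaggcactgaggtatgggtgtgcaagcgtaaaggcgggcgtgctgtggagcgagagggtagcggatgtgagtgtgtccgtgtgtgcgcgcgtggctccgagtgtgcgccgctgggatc
Ifi205, chr1:174031756-174032005, minus strand: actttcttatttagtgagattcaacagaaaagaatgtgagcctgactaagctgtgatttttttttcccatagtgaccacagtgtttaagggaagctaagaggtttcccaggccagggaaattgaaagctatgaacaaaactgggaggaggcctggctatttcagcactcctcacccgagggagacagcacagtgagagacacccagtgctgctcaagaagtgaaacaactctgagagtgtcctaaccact
The motifs searched on both strands were a TATA box (TATAAA), a GC box (GGGCGG), an AP-1 site (TGANTCA), a C/EBP-type site (TTGCNNAA) and a STAT site (TTCNNNGAA). No searched motif overlapped another in these windows. The capitals in Fgf10 mark a GC box read on the other strand, and those in Cxcl14 a STAT-type match. Sult1e1 and Ifi205 held none of these letters. TATAAA occurred in the same window of 8.73% of the 825 genes all above with a RefSeq promoter, in 16.3% of the 129 that were at least 4-fold above the nearest population, in 6.15% of the 1041 genes all below and in 7.31% of 12614 tested genes. GGGCGG occurred in 49.7%, 41.9%, 65.0% and 54.5% of the same sets. AP-1 sites occurred in 5.94%, 8.53%, 3.75% and 4.88%, and C/EBP-type sites in 9.33%, 10.9%, 6.63% and 7.75%. STAT sites occurred in 5.94%, 7.75%, 4.61% and 6.06%. A match describes letters and does not show that a factor binds there.

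**Figure D3:**
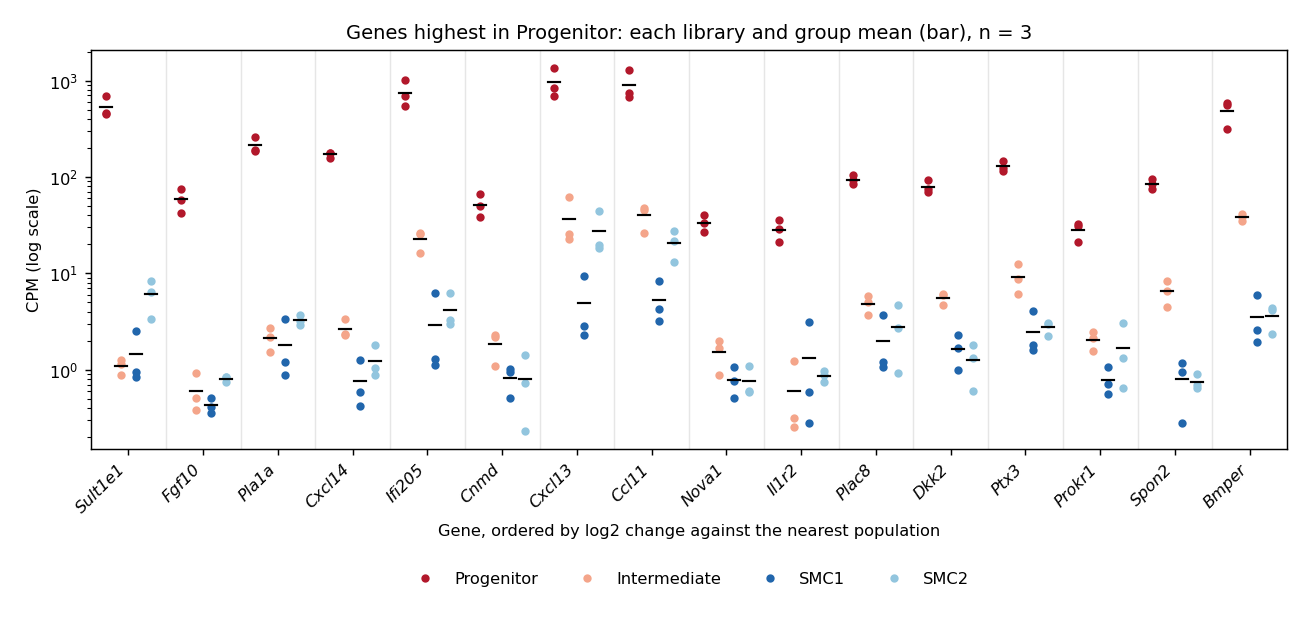
CPM on a log scale in each of the 12 libraries (points) with the group mean (bar, n = 3) for the 16 genes with the largest log2 change of Progenitor against its nearest population. The Progenitor points lie above all others for every gene, from 21.1 CPM (Il1r2 and Prokr1) to 1347 CPM (Cxcl13).

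Another 12 genes followed the 4 markers by distance from the nearest population. Ifi205, a member of the interferon-inducible p200 family, had 1009, 541 and 687 CPM in the Progenitor libraries, against a lowest, median and highest of 1.12, 6.18 and 26.1 CPM in the 9 others. Near-identical copies of p200 genes lie side by side on mouse chromosome 1, so reads may be shared between them and its level is uncertain. Cxcl13, the chemokine that attracts B cells, had 1347, 828 and 697 CPM in the Progenitor libraries, against 2.28, 19.7 and 61.5 (lowest, median and highest) in the 9 others. Ccl11, the eosinophil chemokine eotaxin, had 1285, 738 and 677 CPM in the Progenitor libraries, against 3.16, 21.6 and 47.5 in the 9 others. Progenitor replicate 1 was the highest library for each of these 3 genes, and the lowest Progenitor library stood 20.7, 11.3 and 14.3 times above the highest other library. Their log2 changes were 6.85 ± 0.39 for Ifi205, 5.82 ± 0.45 for Cxcl13 and 5.79 ± 0.26 for Ccl11.

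Il1r2, a decoy receptor that captures interleukin-1, had 35.8, 28.5 and 21.1 CPM in the Progenitor libraries, against 0.255, 0.736 and 3.10 (lowest, median and highest) in the 9 others. Ptx3, a secreted pattern recognition protein of innate immunity, had 115, 125 and 147 CPM in the Progenitor libraries, against 1.59, 3.06 and 12.6 in the 9 others. Their separation from the other libraries follows from how the genes were selected. The log2 changes were 4.9996 ± 0.42 for Il1r2 (adjusted p = 2.38e-07) and 5.03 ± 0.20 for Ptx3 (adjusted p = 1.14e-12). Bmper, an extracellular regulator that binds BMPs, had 555, 312 and 587 CPM in the Progenitor libraries, against 40.9, 34.9 and 38.1 in Intermediate and 1.96 to 6.01 in the SMC libraries. Here Intermediate lay between Progenitor and the SMC populations, and the log2 change was 5.95 ± 0.24 against the mean of the others but 3.67 against Intermediate. Dkk2, a secreted modulator of Wnt signalling, had 92.4, 70.3 and 74.7 CPM in the Progenitor libraries, against 0.598, 1.80 and 6.09 in the 9 others. Spon2, a secreted matrix protein also called mindin, had 85.0, 74.7 and 95.6 CPM in the Progenitor libraries, against 0.2798, 0.937 and 8.39 in the 9 others. Both had Intermediate as the nearest population, with log2 changes of 3.83 and 3.71 against it. The rest of the 16 were Cnmd (chondromodulin, log2 change 5.60), the neuronal splicing regulator Nova1 (5.12), Plac8 (4.98) and the prokineticin receptor gene Prokr1 (4.35), each at or below 5.78 CPM in all 9 other libraries.

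Gene groups were described by how many tested members were called, beside the shares for all genes, which are 20.2% higher, 21.8% lower, 6.52% all above and 7.10% all below. Of the genes named, Agtr1a, Cdkn1a, Cebpb, Ces1f, Fgfbp3, Fmod, Fos, Igha, Krt8, Lyve1, Ptger3 and Scarb1 lost their call when at least 1 of the 12 libraries was left out, with the direction kept. Of 24 interstitial progenitor markers, 22 were called higher in Progenitor, 14 of them with no overlap, and the median log2 change was 3.42. Tnfaip6, which encodes a hyaluronan-binding protein induced by inflammation, had 443, 364 and 352 CPM in the Progenitor libraries, against 82.6, 44.8 and 57.3 in Intermediate and 7.91 to 23.6 in the SMC libraries. Its log2 change was 4.08 ± 0.17 (adjusted p = 7.70e-13). Has1, a hyaluronan synthase gene, had 329.8, 399.6 and 386 CPM in the Progenitor libraries, against 116, 75.9 and 87.5 in Intermediate and 4.39 to 20.7 in the SMC libraries. Both genes thus stepped down through Intermediate to the SMC populations. Ly6a, which encodes the stem cell antigen SCA-1, had 3726, 2701 and 2238 CPM in the Progenitor libraries, against 776, 692 and 568 in Intermediate and 25.1 to 80.8 in the SMC libraries. Ly6a belongs to a family of similar neighbouring genes, so its level is uncertain. Procr, the endothelial protein C receptor gene, was nearest to SMC2, with 266, 248 and 217 CPM in the Progenitor libraries, against 99.1, 75.6 and 73.7 in SMC2 and 15.1 to 30.9 elsewhere. By the test against Intermediate alone, where 9.46% of all genes were higher and 12.7% lower, 15 of the 24 were higher and 1 lower in Progenitor.

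Dpp4, the marker of multipotent progenitors in mouse fat, had 299.6, 185 and 218 CPM in the Progenitor libraries, against 26.5, 26.7 and 50.1 in Intermediate, 12.1, 6.20 and 4.28 in SMC1 and 2.76, 7.66 and 4.20 in SMC2. Its log2 change was 4.43 ± 0.28 against the mean of the others (adjusted p = 1.35e-08) and 2.76 against Intermediate. Dpp4 and Ly6a therefore differed between Progenitor and Intermediate, where Pdgfra (0.04 against Intermediate, adjusted p = 0.913) and Pi16 (-0.27, adjusted p = 0.705) were not called.

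Of 30 committed preadipocyte genes, 17 were higher, 5 of them with no overlap, and 4 lower, with a median log2 change of 1.003. Lpl, lipoprotein lipase, which frees fatty acids from circulating lipoproteins, had 2282, 1327 and 1693 CPM in the Progenitor libraries, against 238, 162 and 158 in Intermediate, 31.1, 10.7 and 13.9 in SMC1 and 644, 517 and 476 in SMC2. Ebf2, a transcription factor of brown and beige preadipocytes in mice, had 142, 111 and 131 CPM in the Progenitor libraries, against 48.5, 42.3 and 42.3 in Intermediate, 5.04, 2.94 and 2.81 in SMC1 and 106, 76.9 and 70.0 in SMC2. For both genes SMC2 was the nearest population and SMC1 the lowest. Their log2 changes were 3.84 ± 0.23 for Lpl and 2.43 ± 0.15 for Ebf2. The matrix gene Vit (4.08), the glutathione hydrolase gene Ggt5 (3.06) and the proteoglycan gene Gpc3 (3.13) also had no overlap.

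Members that went the other way were Prdm16 (-2.71), Fabp4 (-1.16), Sparcl1 (-0.88) and Cebpb (-0.50). Prdm16, a regulator of brown fat identity in mice, had 2.92, 3.73 and 5.62 CPM in the Progenitor libraries, close to 3.91, 4.14 and 3.83 in Intermediate, and 40.3 to 108 in the SMC libraries. Fabp4, a fatty acid binding protein of fat cells, had 119.9, 121 and 96.8 CPM in the Progenitor libraries, against 47.6, 68.9 and 48.1 in Intermediate, 278, 169.9 and 137 in SMC1 and 1610.3, 1322 and 1495 in SMC2. Pparg, the regulator of fat cell formation, was not called (0.56, adjusted p = 0.0541), but was called higher with the replicate block (0.54, adjusted p = 0.0136), with DESeq2, with either other scaling and with either other filter (0.60 to 0.70). It had 38.1, 18.1 and 27.6 CPM in the Progenitor libraries, against 2.24, 2.32 and 2.24 in Intermediate, 12.4, 6.761 and 5.33 in SMC1 and 456, 329 and 315 in SMC2. Tested one population at a time, Pparg was higher in Progenitor than in Intermediate (3.62, adjusted p = 6.45e-07) and SMC1 (1.77, adjusted p = 6.03e-05) and lower than in SMC2 (-3.71, adjusted p = 8.61e-09).

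Genes of mature fat cells were mostly lower or not called. Of 25 such genes, 2 were higher and 11 lower, and their summed level was 396 to 655 CPM in Progenitor, against 454 to 481 in Intermediate, 640.3 to 787 in SMC1 and 2248 to 2537 in SMC2. Against SMC2 alone 16 were lower and 2 higher (23.1% and 21.7% of all genes). The counts were 7 and 7 against SMC1 (25.3% and 23.1%), and 3 and 3 against Intermediate (12.7% and 9.46%). Ppargc1a, a coactivator that drives mitochondrial genes, had 1.32, 0.867 and 1.71 CPM in the Progenitor libraries, against 8.39, 5.90 and 6.13 in Intermediate, 7.99, 8.21 and 7.09 in SMC1 and 40.4, 30.5 and 23.3 in SMC2. Pnpla2, the triglyceride lipase of fat cells, had 23.3, 25.3 and 27.2 CPM in the Progenitor libraries, against 52.1, 37.3 and 34.5 in Intermediate, 115, 82.4 and 121 in SMC1 and 1008, 690.3 and 622 in SMC2. Both lay below all 9 other libraries, with log2 changes of -3.18 ± 0.25 for Ppargc1a and -2.57 ± 0.20 for Pnpla2. Scd1, a fatty acid desaturase gene, was the exception with no overlap in the other direction, at 196, 177 and 389 CPM in the Progenitor libraries, against 25.6, 51.5 and 94.6 (lowest, median and highest) in the 9 others. Dio2, which activates thyroid hormone, was the other member higher against the mean of the others (1.202). By the test against Intermediate alone, Dio2 was lower in Progenitor (-2.84, adjusted p = 5.15e-09). Adipoq, the adiponectin gene (6.97, 2.27 and 3.92 CPM in the Progenitor libraries, against at most 1.73 in Intermediate and SMC1 and 59.7, 96.9 and 114 in SMC2), and Ucp1, the uncoupling protein of brown fat (at most 0.911 CPM in Progenitor, against at most 1.04 elsewhere), were not called against the mean of the others. Tested alone, Adipoq was higher than in Intermediate (3.20, adjusted p = 7.86e-04) and SMC1 (1.89, adjusted p = 0.00357). It was lower than in SMC2 (-4.33, adjusted p = 3.09e-07).

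**Figure D4:**
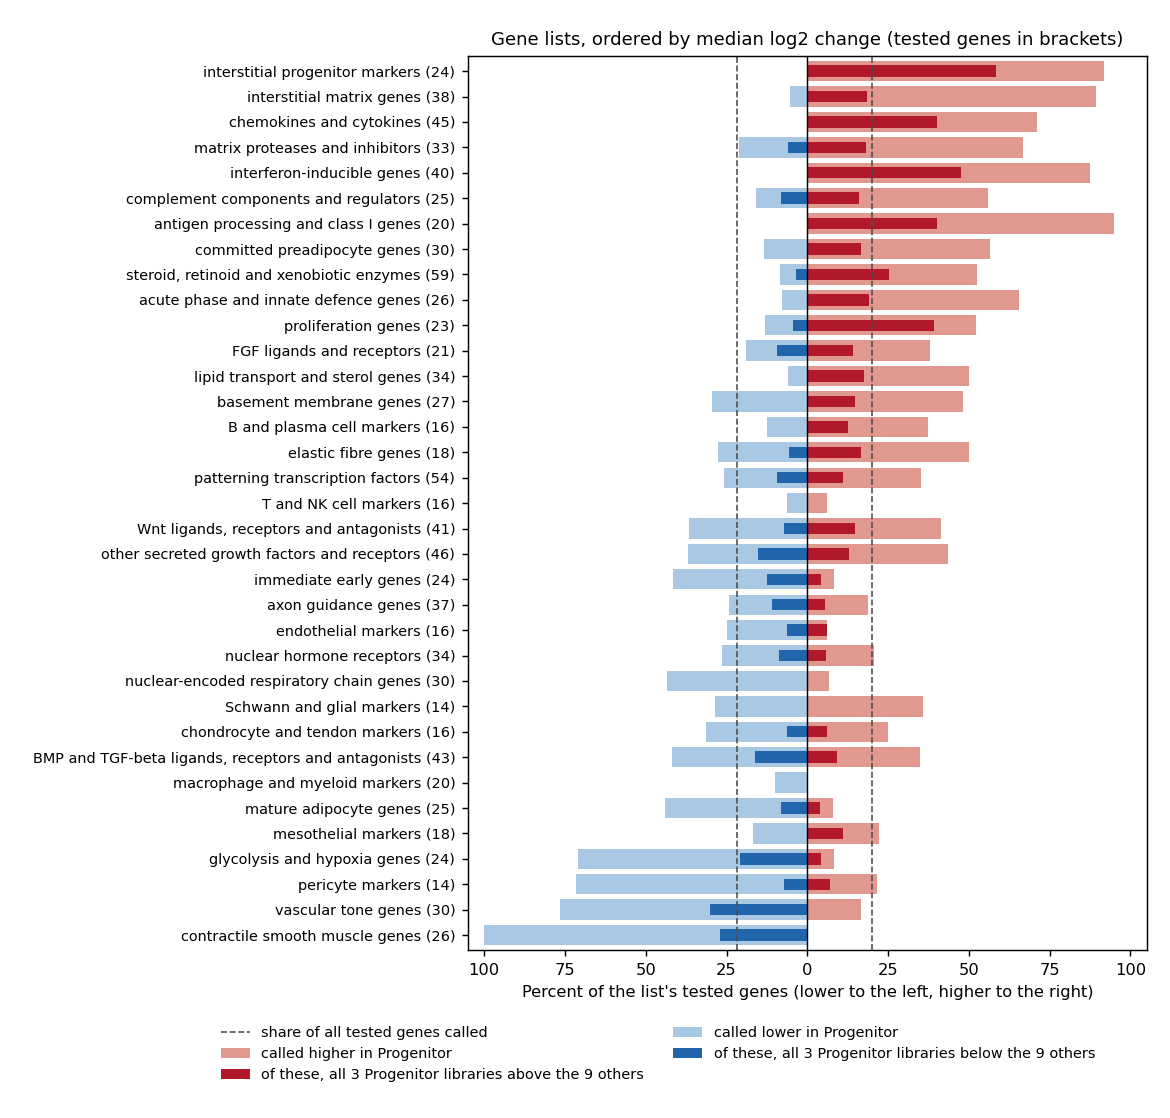
Percent of tested genes in each list that were called higher (right, light red) or lower (left, light blue) in Progenitor, with the darker inner bars for those whose 3 Progenitor libraries were all above or all below the other 9. Dashed lines mark the shares of all tested genes called, 20.2% higher and 21.8% lower. The class I, progenitor marker, matrix and interferon lists reach furthest right, and the contractile and vascular tone lists furthest left.

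Most signals to immune cells were higher. Of 45 chemokines, cytokines and their receptors, 32 were higher in Progenitor, 18 of them with no overlap, and the other 13 were not called. The median log2 change was 1.78, and against Intermediate alone 19 were higher and 3 lower. Ccl2, which attracts monocytes, had 136, 139.6 and 131 CPM in the Progenitor libraries, against 26.97, 22.0 and 34.8 in Intermediate, 3.82, 2.38 and 2.23 in SMC1 and 7.55, 13.2 and 13.0 in SMC2. Ccl7, which also attracts monocytes, had 270.02, 223 and 184 CPM in the Progenitor libraries, against 67.3, 43.5 and 63.5 in Intermediate, 4.12, 1.91 and 2.28 in SMC1 and 4.56, 9.98 and 7.50 in SMC2. Intermediate held the second level for both. The log2 changes were 3.82 ± 0.16 for Ccl2 and 4.41 ± 0.20 for Ccl7. Il6, the interleukin-6 gene, was nearest to SMC2 instead, with 275, 276 and 246 CPM in the Progenitor libraries, against 96.7, 67.4 and 104 in Intermediate, 17.4, 9.51 and 8.61 in SMC1 and 141, 153 and 144 in SMC2. Lif, a cytokine of the interleukin-6 family, had 10.2, 12.3 and 14.3 CPM in the Progenitor libraries, against 8.51, 6.41 and 6.20 in Intermediate and at most 0.469 in the SMC libraries. Its test against Intermediate alone was not called (0.80, adjusted p = 0.0738).

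Complement genes were more often higher than lower in Progenitor. Of 25 complement components and regulators, 14 were higher and 4 lower, with 4 and 2 of these without overlap. C3, the central component of the cascade, had 3957, 5059 and 7059 CPM in the Progenitor libraries, against 1708, 2008 and 2471 in Intermediate, 168, 72.3 and 74.2 in SMC1 and 68.9, 123 and 132 in SMC2. Its log2 change was 4.23 ± 0.24 (adjusted p = 1.03e-10). The proteases C1ra (2.57) and C1s1 (2.19), which start the classical pathway, and Cd55 (4.20), a surface protein that blocks complement, were also all above. Colec11, a lectin that activates complement, was all below, with 1.18, 1.67 and 0.947 CPM in the Progenitor libraries, against 6.62, 13.9 and 28.6 (lowest, median and highest) in the 9 others. Cd59a, which blocks the membrane attack complex, was all below as well (-1.66), and Clu (-1.41) and Cfd (-3.34) were lower with overlap. Against Intermediate alone, the list had 5 members higher and 5 lower.

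Of 26 acute phase and innate defence genes, 17 were higher, 5 with no overlap, and 2 lower. Steap4, a metalloreductase gene, had 1396, 789 and 1166 CPM in the Progenitor libraries, against 574, 368 and 434 in Intermediate, 19.4, 11.2 and 15.3 in SMC1 and 159, 168 and 155 in SMC2. Cp, the copper-binding ferroxidase ceruloplasmin, had 1722, 1035 and 1306 CPM in the Progenitor libraries, against 903, 881 and 866 in Intermediate and 36.4 to 66.7 in the SMC libraries. Both showed the same order, with Intermediate second. Lcn2, which binds bacterial siderophores, was also all above (2.86). The members that were lower were Itih4 (-3.77) and Fgl2 (-0.76).

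Interferon-inducible genes were mostly higher. Of 40 tested, 35 were higher, 19 of them with no overlap, and 5 were not called. The median log2 change was 1.22, and 20 were higher and 3 lower against Intermediate alone. Ifi207 had 415, 315 and 327 CPM in the Progenitor libraries, against 92.3, 59.2 and 75.4 in Intermediate, 5.96, 3.36 and 4.16 in SMC1 and 12.7, 18.4 and 18.1 in SMC2. Ifi204 had 712, 417 and 503 CPM in the Progenitor libraries, against 62.6, 53.9 and 61.0 in Intermediate and 1.76 to 15.7 in the SMC libraries. Both are p200 genes, as are Ifi202b (5.37) and Ifi203 (1.98), and the same doubt on shared reads holds. Outside that family, the chemokine gene Cxcl10 had 34.4, 34.1 and 29.5 CPM in the Progenitor libraries, against 1.91, 7.13 and 10.1 (lowest, median and highest) in the 9 others. Zbp1, a sensor of nucleic acids, had 14.9, 14.1 and 15.9 CPM in the Progenitor libraries, against 1.23, 2.19 and 5.17 in the 9 others. Both had no overlap, with log2 changes of 2.63 ± 0.18 for Cxcl10 and 2.63 ± 0.21 for Zbp1.

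Of 20 genes of antigen processing and class I presentation, 19 were higher and 1 was not called, with 8 having no overlap and a median log2 change of 1.08. B2m, the light chain of every class I molecule, had 2706, 1861 and 1508 CPM in the Progenitor libraries, against 1282, 1063 and 944 in Intermediate, 763, 552 and 451 in SMC1 and 362, 473 and 493 in SMC2. The immunoproteasome subunit gene Psmb8 had 37.3, 40.6 and 33.9 CPM in the Progenitor libraries, against 18.3, 18.8 and 14.8 in Intermediate, 8.25, 4.94 and 4.10 in SMC1 and 5.06, 5.19 and 8.76 in SMC2. Intermediate was again the nearest population for both. The log2 changes were 1.62 ± 0.18 for B2m and 2.12 ± 0.17 for Psmb8. The class I heavy chain genes H2-K1 (1.60) and H2-M3 (1.84) were all above too, but class I genes are similar in sequence and may share reads.

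Enzymes of steroid, retinoid and xenobiotic metabolism leaned upward in Progenitor. Of 59 tested, 31 were higher, 15 with no overlap, and 5 lower, 2 with no overlap. Against Intermediate alone, 17 were higher (28.8%, against 9.46% of all genes) and 11 lower (18.6%, against 12.7%). Beside Sult1e1, the xenobiotic oxidase gene Aox3 had 76.0, 52.4 and 64.3 CPM in the Progenitor libraries, against 16.3, 10.9 and 10.1 in Intermediate and 0.513 to 3.30 in the SMC libraries. Aldh1a3, which makes retinoic acid, had 38.2, 46.4 and 32.6 CPM in the Progenitor libraries, against 7.21, 10.4 and 7.73 in Intermediate and 0.820 to 2.88 in the SMC libraries. Mgst1, a microsomal glutathione transferase, had 910.3, 770.4 and 655 CPM in the Progenitor libraries, against 270.1, 199 and 185 in Intermediate and 33.6 to 148 in the SMC libraries. Their log2 changes were 4.46 ± 0.21, 3.68 ± 0.19 and 2.87 ± 0.15. Sult5a1 was close to Intermediate, with a log2 change of 3.82 against the mean of the others and 0.36 against Intermediate.

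The lower members of the enzyme list included Rdh5 (-0.85), which was all below, and Nqo1 (-0.98), Pon1 (-2.15) and Ces1f (-1.42), which overlapped with at least 1 other library.

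Of 34 lipid transport and sterol genes, 17 were higher, 6 with no overlap, and 2 lower, among them Scarb1 (-0.52). Apod, a lipocalin that carries small lipids, had 3392, 1722 and 1562 CPM in the Progenitor libraries, against 507, 568 and 533 in Intermediate, 18.2, 8.67 and 5.04 in SMC1 and 28.7, 30.97 and 51.3 in SMC2. Nr1h3, the oxysterol receptor LXRα, had 74.2, 66.5 and 80.4 CPM in the Progenitor libraries, against 23.6, 23.7 and 21.4 in Intermediate, 15.7, 12.1 and 12.2 in SMC1 and 31.6, 26.7 and 28.5 in SMC2. Intermediate was the nearest population for Apod and SMC2 for Nr1h3. The log2 changes were 5.22 ± 0.29 for Apod and 1.83 ± 0.12 for Nr1h3. The transporter gene Abca6 (3.597), the lipase inhibitor gene Angptl4 (1.65) and Apoe, the apolipoprotein that clears remnants (1.53), were also all above. Tested against the nearest population alone, Apoe (0.45 against Intermediate, adjusted p = 0.264) and Angptl4 (0.40 against SMC2, adjusted p = 0.186) were not called.

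Growth factor families had members in both directions. Among 21 FGF ligands, receptors and binding proteins, 8 were higher and 4 lower. Fgf13, an intracellular member of the family, was all below, with 0.638, 0.667 and 0.379 CPM in the Progenitor libraries, against 2.98, 2.01 and 2.87 in Intermediate, 26.3, 18.4 and 28.1 in SMC1 and 48.3, 29.1 and 26.4 in SMC2. Fgf1, a ligand of all FGF receptors, was all below too, with 17.9, 18.3 and 14.7 CPM in the Progenitor libraries, against 31.01, 28.3 and 40.7 in Intermediate, 103, 100.6 and 99.0 in SMC1 and 437, 349 and 234 in SMC2. So Fgf10 and these 2 genes lay at opposite ends, and SMC2 was the highest population for both Fgf1 and Fgf13. Fgf12 (1.01) and the carrier gene Fgfbp3 (0.76) were all above by small margins. Fgfbp3 was not called against Intermediate alone (0.71, adjusted p = 0.195). Fgf7, which shares a receptor with Fgf10, was higher (3.16) but not against Intermediate (0.302, adjusted p = 0.265).

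Of 46 other growth factors, receptors and binding proteins, 20 were higher and 17 lower, and the median of -0.07 became 0.07 with upper-quartile factors. Igfbp3, the main carrier of IGFs in serum, had 229.6, 237 and 287 CPM in the Progenitor libraries, against 76.7, 62.4 and 70.4 in Intermediate, 13.3, 7.97 and 10.4 in SMC1 and 24.5, 32.3 and 28.8 in SMC2. Egfr, the EGF receptor gene, had 413, 372 and 571 CPM in the Progenitor libraries, against 224, 214 and 251 in Intermediate, 66.8, 72.9 and 82.6 in SMC1 and 20.8, 26.6 and 27.2 in SMC2. Both were all above, with Intermediate second. On the other side, Angpt2, a regulator of vessel growth that acts on the receptor TEK, had 10.7, 10.3 and 9.92 CPM in the Progenitor libraries, against 23.4, 22.8 and 19.4 in Intermediate, 164, 147 and 141 in SMC1 and 195, 188 and 146 in SMC2. Bdnf, a neurotrophin, had 0.638, 1.07 and 1.263 CPM in the Progenitor libraries, against 3.17, 1.82 and 3.07 in Intermediate, 37.8, 37.2 and 35.0 in SMC1 and 42.3, 32.8 and 24.7 in SMC2. Both had Intermediate next above Progenitor. The log2 changes were -3.02 ± 0.16 for Angpt2 and -3.94 ± 0.26 for Bdnf. Tek itself was all above, with 124, 92.9 and 122 CPM in the Progenitor libraries, against 6.72, 15.4 and 40.9 (lowest, median and highest) in the 9 others.

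Among 43 genes of BMP and TGF-β signalling, 15 were higher and 18 lower. The ligand gene Bmp7, which promotes brown fat formation in mice, had 6.97, 6.47 and 5.94 CPM in the Progenitor libraries, against 0.124, 0.575 and 0.889 (lowest, median and highest) in the 9 others. The activin antagonist gene Fst had 159, 134 and 131 CPM in the Progenitor libraries, against 94.6, 59.5 and 53.6 in Intermediate, 10.3, 6.81 and 6.56 in SMC1 and 33.5, 48.0 and 39.9 in SMC2. Both ligand and antagonist were thus all above, with log2 changes of 3.56 ± 0.33 for Bmp7 and 2.33 ± 0.16 for Fst. Inhba, the activin A subunit gene, was all below, with 4.33, 9.93 and 4.30 CPM in the Progenitor libraries, against 20.9, 12.2 and 10.2 in Intermediate, 78.7, 78.4 and 70.4 in SMC1 and 99.4, 93.6 and 75.2 in SMC2. The BMP receptor gene Bmpr1b was all below (-2.67), and so was Fstl3 (-2.37), an activin antagonist whose level is uncertain because 47.3% of its exon bases overlap another gene.

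In the Wnt list of 41, 17 were higher and 15 lower. Ligands and secreted regulators led the higher side. Wnt11, a ligand of the non-canonical pathway, had 72.4, 88.1 and 79.5 CPM in the Progenitor libraries, against 12.6, 15.1 and 10.3 in Intermediate and 1.17 to 8.58 in the SMC libraries. Rspo2, which strengthens Wnt signals, had 10.2, 9.80 and 11.9 CPM in the Progenitor libraries, against 3.36, 2.14 and 1.41 in Intermediate and 0.0933 to 1.08 in the SMC libraries. Sfrp1, a secreted Wnt inhibitor, had 417, 699.9 and 593 CPM in the Progenitor libraries, against 230.2, 299 and 205 in Intermediate and 15.8 to 40.0 in the SMC libraries. Frizzled receptor genes led the lower side. Fzd6 had 1.64, 2.07 and 2.40 CPM in the Progenitor libraries, against 7.79, 12.3 and 20.2 (lowest, median and highest) in the 9 others, and Fzd8 (-1.49) was all below as well, as was Fzd7 (-1.50), which was chosen after its value was seen. Against Intermediate alone, 5 of the 41 genes were higher and 17 lower.

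Matrix genes were high in Progenitor against the smooth muscle populations and mixed against Intermediate. Of 38 interstitial matrix genes, 34 were higher and 2 lower, with 7 all above and a median log2 change of 2.05, while against Intermediate alone 8 were higher and 9 lower. Dcn, the proteoglycan decorin, had 45692, 35889.9 and 33264 CPM in the Progenitor libraries, against 29091, 28290.2 and 25851 in Intermediate, 562, 300.1 and 206 in SMC1 and 252, 507 and 512 in SMC2. Has2, a hyaluronan synthase gene, had 102, 69.6 and 73.9 CPM in the Progenitor libraries, against 16.2, 9.04 and 9.77 in Intermediate, 1.37, 0.793 and 0.761 in SMC1 and 1.93, 3.31 and 1.92 in SMC2. Col5a3, a fibrillar collagen chain, had 188, 199 and 300.5 CPM in the Progenitor libraries, against 28.3, 33.3 and 25.5 in Intermediate, 7.74, 3.54 and 6.62 in SMC1 and 23.8, 15.3 and 28.0 in SMC2. Dcn was close to Intermediate (0.46), whereas Has2 (2.81) and Col5a3 (2.98) were far above it. The members that were lower were Prelp (-0.85) and Fmod (-0.67). Against Intermediate alone Prelp was at -1.74 (adjusted p = 6.99e-05) and Fmod at -4.73 (adjusted p = 6.10e-08), so the lower call of Fmod rested on Intermediate.

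Of 27 basement membrane genes, 13 were higher and 8 lower, and laminin chains went both ways. Lamb1 had 324, 241 and 470.2 CPM in the Progenitor libraries, against 104, 94.2 and 96.1 in Intermediate and 8.11 to 27.7 in the SMC libraries. The laminin-binding linker gene Nid1 had 2354, 2072 and 3369 CPM in the Progenitor libraries, against 1789, 1451 and 1484 in Intermediate and 86.8 to 140.1 in the SMC libraries. Lamb1, Nid1 and Lamc1 (1.17) were all above, while Lama5 (-3.25) and the collagen IV chain gene Col4a6 (-2.38) were lower with overlap. Lamc1 was not called against Intermediate alone (0.45, adjusted p = 0.143).

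Elastic fibre genes went both ways. Eln, elastin, the protein of the elastic lamellae, was all below, with 150.03, 274 and 295 CPM in the Progenitor libraries, against 2363, 1706 and 1231 in Intermediate, 5388, 3759.9 and 4806 in SMC1 and 347, 723 and 517 in SMC2. Its log2 change was -2.77 ± 0.29 (adjusted p = 1.90e-07), with SMC2 nearest. Efemp1, a fibulin, was all above, with 612, 479 and 507 CPM in the Progenitor libraries, against 159, 103 and 123 in Intermediate and 13.5 to 49.7 in the SMC libraries. Emilin2, a glycoprotein of elastic fibres, was all above (4.09), as was the crosslinking enzyme gene Loxl2 (1.95). In the list of 18, 9 were higher and 5 lower, but against Intermediate alone 3 were higher and 9 lower.

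Of 33 matrix proteases and inhibitors, 22 were higher, 6 with no overlap, and 7 lower, 2 with no overlap. Both plasminogen activator genes were all above. Plat, the tissue type, had 654, 607 and 666 CPM in the Progenitor libraries, against 451, 323 and 339 in Intermediate and 65.4 to 115 in the SMC libraries. Plau, the urokinase type, had 18.1, 9.001 and 11.4 CPM in the Progenitor libraries, against 0.586, 0.894 and 2.85 (lowest, median and highest) in the 9 others. The metalloprotease genes Adamts12 (2.92) and Adamts8 (-3.595) went in opposite directions, each without overlap, and the inhibitor gene Timp3 was all below (-1.44).

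Transcription factors of tissue patterning were also split, with 19 of 54 higher and 14 lower. Tcf21, a factor of visceral fibroblasts and epicardium, had 21.6, 21.5 and 25.96 CPM in the Progenitor libraries, against 19.5, 12.7 and 12.01 in Intermediate and at most 1.92 in the SMC libraries. Wt1, a factor of mesothelium and of visceral fat stroma, had 13.5, 22.1 and 18.1 CPM in the Progenitor libraries, against 3.17, 3.96 and 9.96 in Intermediate and at most 1.08 in the SMC libraries. Both were all above, Tcf21 by 0.64 against Intermediate and Wt1 by 1.65. The test against Intermediate alone was not called for Tcf21 (adjusted p = 0.0952). Tbx2, a T-box repressor, was all below, with 3.6003, 3.0004 and 3.98 CPM in the Progenitor libraries, against 11.0, 10.2 and 7.98 in Intermediate, 19.7, 9.84 and 17.7 in SMC1 and 323, 189 and 195 in SMC2. The forkhead genes Foxs1 (-2.97), Foxc2 (-2.33) and Foxc1 (-1.69) were all below too. Foxc2 had 3.96, 6.80 and 3.85 CPM in the Progenitor libraries, against 29.1, 24.4 and 18.1 in Intermediate, 38.3, 31.9 and 43.3 in SMC1 and 16.6, 16.2 and 14.8 in SMC2.

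Of 34 nuclear hormone receptors, 7 were higher and 9 lower, or 8 higher and 7 lower with upper-quartile factors. Beside Nr1h3, the bile acid receptor gene Nr1h4 was all above, with 9.39, 7.07 and 8.46 CPM in the Progenitor libraries, against 0.117, 0.552 and 4.60 (lowest, median and highest) in the 9 others. The thyroid hormone receptor gene Thrb (-1.59), the mineralocorticoid receptor gene Nr3c2 (-1.36) and Nr1h2 (-0.70) were all below. Nr1h2 was not called against Intermediate alone (-0.40, adjusted p = 0.0802). Against the mean of the others, axon guidance genes had 7 of 37 higher and 9 lower, close to the shares of all genes. Their median of -0.10 turned positive, 0.04, with upper-quartile factors. Against Intermediate alone, 15 of the 37 were lower (40.5%) and 5 higher (13.5%). By that test 12.7% of all genes were lower and 9.46% higher. Of the 34 nuclear hormone receptors, 11 were lower than in Intermediate (32.4%) and 4 higher (11.8%).

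Several mitotic genes were all above, at low levels. Of 23 proliferation genes, 12 were higher, 9 with no overlap, and 3 lower. Ccnb1, a cyclin of mitosis, had 9.43, 5.93 and 6.759 CPM in the Progenitor libraries, against 0.933, 2.60 and 3.58 (lowest, median and highest) in the 9 others. Cdk1, its kinase partner, had 4.69, 5.40 and 6.19 CPM in the Progenitor libraries, against 0.9203, 1.83 and 3.48 in the 9 others. The log2 changes were 1.78 ± 0.28 for Ccnb1 (adjusted p = 3.35e-05) and 1.47 ± 0.28 for Cdk1 (adjusted p = 2.55e-04). Tyms (0.78), which makes thymidylate, was all above as well, and the inhibitor of cycling Cdkn1c was also all above (1.71), although 30.7% of its exon bases overlap another gene. The whole list summed to 529.8 to 601 CPM in Progenitor, against 624 to 769 in Intermediate, 671 to 715 in SMC1 and 899 to 1079 in SMC2, so the sum was not higher in Progenitor. Ccnd2, a cyclin of the first gap phase, was all below, with 103, 135 and 113 CPM in the Progenitor libraries, against 310.1, 273 and 246 in Intermediate, 282, 269.7 and 311 in SMC1 and 433, 337 and 314 in SMC2. Mcm6 (-0.61) and Cdkn1a (-0.43) were the other lower members.

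**Figure D5:**
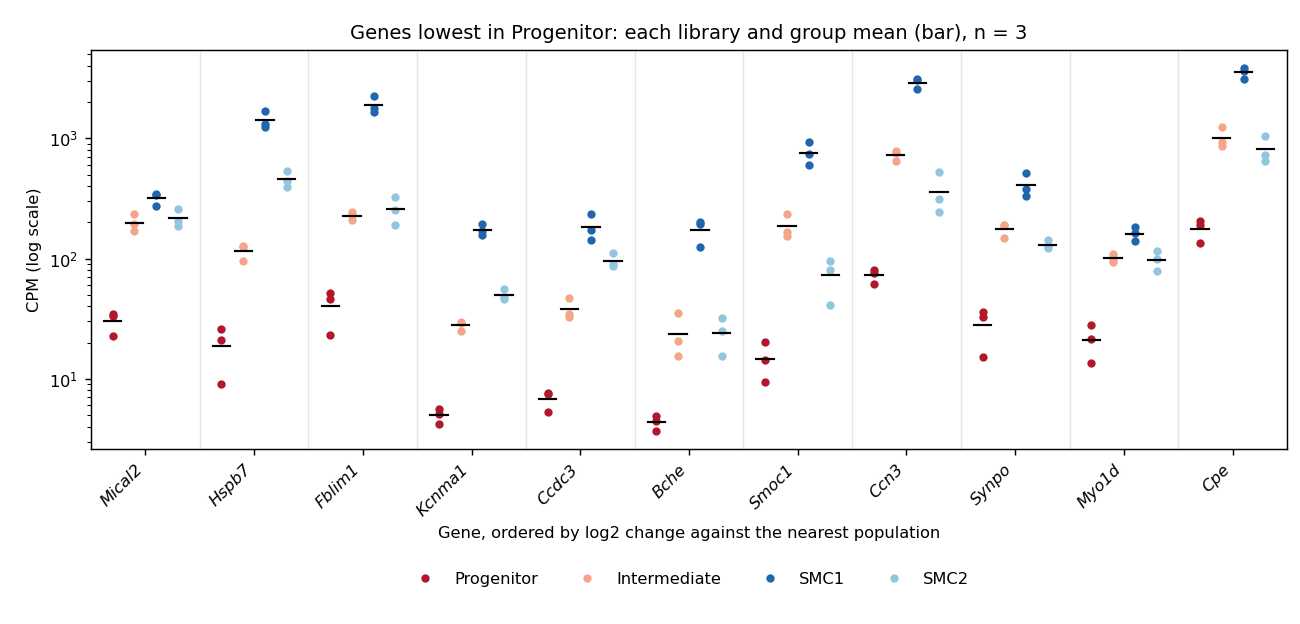
CPM on a log scale in each of the 12 libraries (points) with the group mean (bar, n = 3) for 11 of the 12 genes with the most negative log2 change of Progenitor against its nearest population. The Progenitor points lie below all others for every gene, and SMC1 is the highest population for each of the 11.

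The genes furthest below the other populations were led by the cytoskeleton. Mical2, an enzyme that oxidises and takes apart actin filaments, had 22.8, 33.3 and 34.3 CPM in the Progenitor libraries, against 168, 234 and 193 in Intermediate, 276, 339 and 342 in SMC1 and 258, 207 and 186 in SMC2. The log2 change was -2.99 ± 0.19 against the mean of the others and -2.72 against Intermediate, the nearest. Hspb7, a small heat shock protein of muscle, had 9.02, 25.8 and 20.9 CPM in the Progenitor libraries, against 126, 126 and 96.1 in Intermediate, 1309, 1250.3 and 1697 in SMC1 and 446, 536 and 393 in SMC2. Fblim1, a filamin-binding adaptor at cell adhesions, had 23.2, 45.7 and 51.6 CPM in the Progenitor libraries, against 231, 243 and 210.3 in Intermediate, 1783, 1644 and 2250.4 in SMC1 and 192, 325 and 253 in SMC2. In both genes Progenitor replicate 1 was the lowest library of all 12. Synpo, an actin-organising protein, had 15.1, 32.8 and 35.9 CPM in the Progenitor libraries, against 122, 189 and 512 (lowest, median and highest) in the 9 others. Myo1d, an unconventional myosin, had 13.4, 28.3 and 21.6 CPM in the Progenitor libraries, against 79.4, 109 and 184 in the 9 others.

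Secreted proteins and enzymes made up most of the rest. Ccn3, a matricellular protein, had 61.5, 76.1 and 80.5 CPM in the Progenitor libraries, against 787, 754 and 643 in Intermediate, 3107, 2557 and 3062 in SMC1 and 243, 529 and 311 in SMC2. Smoc1, a matricellular protein that modulates BMP signals, had 9.39, 14.3 and 20.1 CPM in the Progenitor libraries, against 234, 155 and 167 in Intermediate, 736, 606 and 929.9 in SMC1 and 41.0, 95.0 and 81.1 in SMC2. For both, SMC2 was nearest and Intermediate higher than SMC2. Cpe, carboxypeptidase E, which trims peptide hormones, had 136, 206 and 191 CPM in the Progenitor libraries, against 1254, 925 and 871 in Intermediate, 3659.9, 3134 and 3849 in SMC1 and 654, 1054 and 726 in SMC2. The log2 changes were -3.65 ± 0.24 for Ccn3, -3.90 ± 0.31 for Smoc1 and -3.01 ± 0.22 for Cpe. Bche, the plasma cholinesterase gene, had 4.47, 3.67 and 4.86 CPM in the Progenitor libraries, against 15.4, 32.3 and 202 (lowest, median and highest) in the 9 others. Ccdc3 was also among the 12 (-3.70), but 69.1% of its exon bases overlap the gene model Gm26776, and the kit does not mark strand, so its level is uncertain.

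All 26 contractile smooth muscle genes tested were called lower in Progenitor, with a median log2 change of -3.44, but only 7 were below all 9 other libraries. Their summed level was 1403 to 2415 CPM in Progenitor, against 2546 to 2993 in Intermediate and 40266 to 78505 in the SMC libraries. Mylk, the kinase that starts smooth muscle contraction, had 11.9, 21.4 and 18.4 CPM in the Progenitor libraries, against 25.5, 31.6 and 35.8 in Intermediate, 675, 666 and 774 in SMC1 and 1175, 842 and 849 in SMC2. Tpm1, a tropomyosin, had 91.0, 118 and 99.9 CPM in the Progenitor libraries, against 177, 161 and 147 in Intermediate, 1739, 1618 and 1629 in SMC1 and 3503, 2923 and 2361 in SMC2. Both were all below, though their distance to Intermediate was -0.85 for Mylk and -0.66 for Tpm1, far less than to the SMC populations. Myh11, the smooth muscle myosin, overlapped with Intermediate, with 31.9, 91.5 and 114 CPM in the Progenitor libraries, against 70.0, 112 and 88.5 in Intermediate and 5052 to 9664 in the SMC libraries. Against Intermediate alone, 7 of the 26 were lower and 1 was higher.

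Vascular tone genes were lower as well, with 23 of 30 lower, 9 of them all below, and 5 higher. Kcnma1, the pore of the calcium-activated potassium channel that relaxes vessels, had 4.19, 5.07 and 5.62 CPM in the Progenitor libraries, against 30.0, 25.1 and 29.1 in Intermediate, 159, 170.3 and 195 in SMC1 and 46.0, 55.7 and 48.1 in SMC2. Gucy1a1, a subunit of the nitric oxide receptor, had 11.1, 11.9 and 14.2 CPM in the Progenitor libraries, against 44.3, 34.1 and 37.0 in Intermediate, 318, 288 and 390.03 in SMC1 and 799.5, 583 and 532 in SMC2. Gucy1b1, the partner subunit, had 7.47, 7.80 and 8.84 CPM in the Progenitor libraries, against 15.0, 18.7 and 21.1 in Intermediate, 217, 271 and 217 in SMC1 and 199, 171 and 135 in SMC2. Both subunits and the channel thus had Intermediate next above Progenitor. Pde3a (-2.80) and Pde5a (-2.08), which break down cyclic nucleotides, were all below. Rgs4 (-4.86), which dampens G protein signals, was all below too, though its test against Intermediate alone was not called (-0.60, adjusted p = 0.0665). The higher members were the vasopressin receptor gene Avpr1a (3.13), Ptgir (1.94), Adra1b (1.27), Ptger3 (0.76) and Agtr1a (0.52), all overlapping at least 1 other library. Tested against SMC2 alone, Agtr1a (-1.96, adjusted p = 1.45e-06) and Adra1b (-0.71, adjusted p = 0.0338) were lower in Progenitor. The higher call of Ptger3 rested on Intermediate, against which its log2 change was 4.51 (adjusted p = 8.31e-08). Avpr1a (0.09, adjusted p = 0.789), Ptgir (0.10, adjusted p = 0.769) and Agtr1a (0.62, adjusted p = 0.0796) were not called against Intermediate alone.

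Most glycolysis genes were lower than in the smooth muscle populations, but not than in Intermediate. Of 24 glycolysis and hypoxia genes, 17 were lower and 2 higher. Against Intermediate alone 4 were higher and 4 lower, while 18 were lower than in SMC1 and 20 lower than in SMC2. Of all genes, 25.3% were lower than in SMC1 and 23.1% lower than in SMC2. Pfkl, a phosphofructokinase, had 27.3, 24.4 and 27.7 CPM in the Progenitor libraries, against 42.8, 39.1 and 37.1 in Intermediate, 118, 86.5 and 112 in SMC1 and 259, 186 and 171 in SMC2. Adm, the vasodilator adrenomedullin, went the other way, with 238, 184 and 199.6 CPM in the Progenitor libraries, against 134, 106 and 109 in Intermediate and 23.6 to 35.6 in the SMC libraries. Hk2 was the other higher member (0.93). Of 30 nuclear-encoded respiratory chain genes, 13 were lower and 2 higher against the mean of the others, yet 13 were higher against Intermediate alone and 17 were not called there. None of the 30 was all above or all below, and the share of mitochondrial transcripts, given above, was larger in every Progenitor library than in every Intermediate library. Its part in these levels was not tested.

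Immediate early genes were called lower in 10 of 24 and higher in 2, with 4 lower and 3 higher under upper-quartile factors. Their summed level was 12821 to 14729 CPM in Progenitor, against 16355 to 19812 in Intermediate, 14027 to 16031 in SMC1 and 19155 to 23091 in SMC2. Myc, a driver of growth, was the member all above, with 284, 275 and 309.5 CPM in the Progenitor libraries, against 114, 70.1 and 86.5 in Intermediate, 36.8, 27.6 and 29.1 in SMC1 and 205, 169 and 168 in SMC2. The heat shock genes Hspa1b (-1.52) and Hspa1a (-1.62), which are near-identical copies, and Fos (-0.47) were all below. Fos was not called against Intermediate alone (-0.46, adjusted p = 0.113).

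Transcripts that mark other cell types were detected in every population, and their summed level differed widely between lists. The leukocyte marker Ptprc had 10.7, 11.9 and 5.94 CPM in the Progenitor libraries, against 6.39, 9.12 and 19.2 (lowest, median and highest) in the 9 others, and was not called. The macrophage and myeloid list summed to 167 to 216 CPM in Progenitor, and 2 of its 20 tested members were called, Cd163 (-1.58) and Lyve1 (-0.82), both lower. The endothelial list summed to 197 to 277 CPM in Progenitor, against 115 to 182 in Intermediate, 404 to 582 in SMC1 and 488 to 567 in SMC2. Of its 16 members 4 were lower, among them Pecam1 (-0.96) and the transcription factor gene Erg, which was all below (-3.51). Tek was its only higher member. The mesothelial list summed to 119.9 to 162 CPM in Progenitor, against 303 to 656 in Intermediate and 35.0 to 125 in the SMC libraries. Against Intermediate alone, 13 of its 18 members were lower in Progenitor and 1 was higher. By that test 12.7% of all genes were lower and 9.46% higher. Msln, mesothelin, had 4.38, 10.6 and 7.20 CPM in the Progenitor libraries, against 31.3, 27.3 and 71.7 in Intermediate. It was not called against the mean of the others (-0.84, adjusted p = 0.175), but was lower than in Intermediate (-2.57, adjusted p = 0.00677). Krt8, a keratin of mesothelium, had 0.729, 1.0001 and 0.758 CPM in the Progenitor libraries, against 6.46, 6.22 and 22.2 in Intermediate, while Wt1 and Aldh1a2 (2.66) of the same list were all above.

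Members of the B and plasma cell list went in both directions. Jchain, which joins polymeric antibodies, had 22.1, 32.1 and 31.3 CPM in the Progenitor libraries, against 0.249, 0.314 and 0.192 in Intermediate, 11.0, 9.42 and 7.56 in SMC1 and 0, 4.40 and 6.0001 in SMC2. Igkc, the kappa light chain, and Igha, an antibody heavy chain, were chosen after their values were seen. Igkc had 41.9, 25.7 and 38.8 CPM in the Progenitor libraries, against 0.0621, 0.754 and 0.830 in Intermediate, 27.9, 14.1 and 15.99 in SMC1 and 0.230, 4.89 and 15.3 in SMC2. Jchain was all above (3.82 ± 0.62, adjusted p = 7.86e-04), and Igkc overlapped with SMC1 (3.10 ± 0.70, adjusted p = 0.00666). Igha had 0.137, 5.001 and 20.6 CPM in the Progenitor libraries, against at most 7.50 in the 9 others, and so varied widely among the Progenitor libraries themselves. Its call was lost without Progenitor replicate 3 (3.49, adjusted p = 0.0982) and with limma-voom (3.49, adjusted p = 0.334). Of the 16 genes in the B and plasma cell list, 6 were higher and 2 lower, and Irf4 was all above (1.99). Against SMC1 alone 4 were higher and 2 lower, with a median log2 change of -0.21. By that test 23.1% of all genes were higher and 25.3% lower. The list summed to 635 to 723 CPM in Progenitor and 631 to 741 CPM in Intermediate, against 368 to 525 in SMC1 and 355 to 404 in SMC2. In Intermediate, Jchain and Igkc stayed at or below 0.830 CPM, so other members carried that sum. The sum therefore does not follow these antibody transcripts. The part that B and plasma cells had in the levels of other immune genes, such as Cxcl13, was not tested.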

How the data were processed

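RNA from 4 sorted populations was sequenced in 12 libraries, 3 per population. The deposited table holds whole-number read counts per gene, which the authors left unnormalized, and STAR 2.5.2a and DESeq2 1.26.0 are listed in the submitters' processing notes, with mm10 as the build. Which program counted the reads is not given in the sources used here. Per the labels' protocols the kit does not mark strand, so reads of overlapping antisense genes cannot be told apart. Gene names and coordinates came from the table and from the GENCODE annotation of GRCm38, in which 33323 of 33352 rows matched.

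Genes passing edgeR's filterByExpr were fitted with edgeR 4.0.16 (quasi-likelihood, robust, TMM scaling) in R 4.3.3 over all 12 libraries, with Progenitor minus the average of the 3 other population coefficients as the contrast, and each population on its own as further contrasts. A call has a Benjamini-Hochberg adjusted p below 0.05. Libraries were ordered by TMM-scaled CPM. The design leaves 8 residual degrees of freedom. Depth ran from 13258631 to 22647175 counts per library.

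The genes named are the 16 with the largest and the 12 with the most negative log2 change against the nearest population, among non-overlapping calls with a gene symbol and a mean log2 CPM no lower than 4 (in Progenitor, or for lower genes in the lowest of the other populations), up to 6 members of each list by smallest adjusted p with non-overlapping ones first, members that went the other way, the 4 markers and a set of identity genes. Some genes that met this rule are not reported here. Same-numbered Progenitor and Intermediate libraries deviated together (r of 0.170 to 0.191), the numbers coming from the labels, while those of Progenitor with SMC1 (0.0246 to 0.267) or SMC2 (-0.0177 to 0.120) did not all do so. Members and lists were chosen with earlier results of these data known. Alternatives were median-of-ratios and upper-quartile factors, no filter, a filter of 1 CPM in 3 libraries, DESeq2 1.42.0, limma-voom (limma 3.58.1), a replicate block, leaving out each library, and a minimum of 2-fold.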

Additional observations from a re-analysis of the deposited data

How the results depend on the processing

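Every gene named kept its direction under each alternative tried, except Ptprc, Adipoq and Ucp1, which were not called. On the log2 scale, Ptprc was at 0.0079 with median-of-ratios factors, 0.11 with upper-quartile factors, 0.012 with no filter, 0.080 with the 1 CPM filter, 0.0076 with DESeq2, 0.20 without Progenitor replicate 3, 0.19 without SMC1 replicate 1, 0.02 without SMC1 replicate 2, and 0.03, 0.05 and 0.05 without SMC2 replicates 1, 2 and 3. Over all libraries left out in turn, Ptprc ranged from -0.23 to 0.20, Adipoq from -0.28 (without Progenitor replicate 1) to 0.55, and Ucp1 from -0.12 (without Progenitor replicate 1) to 1.31. At least 1 alternative ended the call of 22 other named genes, which kept their direction. These were Cdkn1a, Cebpb, Fmod, Fos and Scarb1 with upper-quartile factors, Ces1f, Fgfbp3, Igha and Krt8 with limma-voom, and the others on leaving out a library or at a minimum of 2-fold. Upper-quartile factors gave 4700 genes higher and 3217 lower, 879 all below and 555 lower than each population. At a minimum of 2-fold, 3912 genes were called, 2189 higher and 1723 lower, 668 of them all below, and 734 were called against each population the same way, 474 higher and 260 lower. The cause of these shifts was not tested beyond the smaller number of genes that a fold minimum leaves.

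Leaving out each library in turn gave 6523 to 8318 genes called, 3124 to 4690 higher and 3182 to 4052 lower, with 1277 to 1673 all above and 1014 to 1863 all below. Called the same way against each population were 1158 to 1693, with 598 to 1038 higher and 499 to 876 lower; the lower count was 540 without SMC1 replicate 3 and 499 without SMC2 replicate 2. With the replicate block, 8430 genes were called, 4108 higher and 4322 lower, with 1245 all above and 1355 all below. It called Pparg and ended the call of Fmod, and changed no other call of a named gene against the mean of the others. Against Intermediate alone, where same-numbered libraries deviated together, it gave 2011 genes higher and 2583 lower, in place of 1799 and 2419; Agtr1a and Angptl4 were then called higher and Cp no longer was. The labels do not say what a replicate number marks. By count depth, 14336 of the 33352 rows were too low to be tested.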

Other observations

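Of 14 Schwann and glial markers, 5 were higher and 4 lower in Progenitor, and they summed to 1502 to 1802 CPM in Progenitor, against 1694 to 2328 in Intermediate and 434 to 796 in the SMC libraries. Of 14 pericyte markers, 3 were higher and 10 lower, and they summed to 1361 to 2052 CPM in Progenitor, against 1658 to 1903 in Intermediate and 2673 to 4417 in the SMC libraries. Chondrocyte and tendon markers summed to 385 to 649.7 CPM in Progenitor, against 2273 to 3492 in Intermediate and 103 to 179 in the SMC libraries, with 4 of 16 higher and 5 lower. T and NK cell markers summed to 37.1 to 72.0 CPM in Progenitor, against 28.4 to 62.2 in Intermediate and 22.7 to 57.2 in the SMC libraries, and 1 of the 16 was higher and 1 lower.

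By gene type, 1050 of the genes all above (84.7%) were protein coding, 91 (7.34%) processed pseudogenes and 41 (3.31%) long intergenic RNAs. Of the genes all below, 1288 (95.4%) were protein coding, and of all tested genes 15010 (78.9%) were. Among all tested genes, 5.88% were processed pseudogenes and 3.49% long intergenic RNAs. In the genes all below, these shares were 0.741% and 0.815%. Processed pseudogenes can take reads from their parent genes, so their levels are uncertain. Another 242 rows with too few counts to be tested also had all 3 Progenitor libraries above all 9 others.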
